A study of Mus musculus with 18 samples.

Results

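Nuclear receptors are transcription factors that carry a zinc-finger DNA-binding domain and a ligand-binding domain, and many are switched by hormones, bile acids, oxysterols, vitamins or foreign compounds. A few of them, such as REV-ERB alpha and beta, are themselves parts of the circadian clock. BMAL1, the clock's positive factor, pairs with CLOCK and binds E-box sequences, of which CACGTG is the best known. The genes described here are 34 nuclear receptor genes that lie outside the clock receptors, the PPAR group and a few lineage and corticosteroid receptors. They were chosen by name, and a BMAL1 peak was counted at a gene when its centre lay inside the gene or within 10 kb of either end. All 34 symbols matched a protein-coding gene of the RefSeq annotation of GRCm38.p6, out of 21883 protein-coding genes on chromosomes 1 to 19, X and Y.

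ChIP-seq for BMAL1, which sequences the DNA pulled down with an antibody against the protein, was done on 3 tissues (liver, kidney, heart) of wild type mice of the C57BL/6 background, aged 3 to 6 months. The mice lived under a cycle of 12 h light and 12 h dark and ate freely, and the 3 tissues came from the same animals at zeitgeber time 6, midway through the light phase. All groups share this genotype, age and time, and no mouse without BMAL1 and no second time point is part of the comparison. Each tissue had 3 ChIP and 3 input libraries, which the authors combined into 1 peak list per tissue. For the heart inputs the source field reads kidney while title and tissue field read heart, and whether the heart list was made with heart input could not be checked. The lists held 4813 liver, 4034 kidney and 2519 heart peaks, each with a whole-number score of unstated meaning that ranks peaks within its own list. No value exists per animal, so nothing below carries an error between mice, the read depth is unknown, and a gene without a peak is only a gene without a listed peak. The lists hold positions and no expression values, so the tissues were not checked against marker genes. Whole tissues were used, and the cells that carry a peak are not known.

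Peaks were found at 15 of the 34 receptor genes: Thra, Rara, Nr2f2, Nr2f6, Nr4a1, Nr4a2, Nr0b2, Nr1h5, Nr1i2, Esr1, Esrrg, Nr2c2, Nr5a1, Nr6a1 and Vdr. The liver list had a peak at 10 of them (29.4%, exact 95% interval 15.1 to 47.5%), against 18.1% of all protein-coding genes. The kidney list also had a peak at 10 (29.4%), against 18.0% of all protein-coding genes, and the heart list at 5 (14.7%, 5.0 to 31.1%), against 11.5%. A peak in any list was found at 44.1% of the receptor genes (27.2 to 62.1%) and at 30.6% of protein-coding genes. The intervals cover counting error only, and each takes in the share of all protein-coding genes set beside it. Only Thra, Rara, Nr2f2 and Nr4a1 had peaks in all 3 tissues (11.8%, against 4.35% of protein-coding genes), and only Thra and Nr2f2 lay near a region common to all 3 lists (5.88%, against 3.09%).

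Sequences are shown for the receptor genes with a peak at a start site, because an E-box there can be set beside the peak. RefSeq start windows, from 250 bases before to 50 after a start, were given for 31 of the 34 genes. Thra, Hnf4g and Nr5a1 were not among them. The 250 bases before the start are printed, 5′ to 3′ on the gene's strand, for the 4 receptor genes whose start window overlapped a peak, with CACGTG in capitals. The first had a liver peak, the second a liver and a kidney peak, the third a kidney peak and the last a liver peak. Rara had 2 neighbouring windows under its peaks, and the one printed belongs to the start farther into the gene.
Nr0b2, chr4:133553126-133553375, + strand: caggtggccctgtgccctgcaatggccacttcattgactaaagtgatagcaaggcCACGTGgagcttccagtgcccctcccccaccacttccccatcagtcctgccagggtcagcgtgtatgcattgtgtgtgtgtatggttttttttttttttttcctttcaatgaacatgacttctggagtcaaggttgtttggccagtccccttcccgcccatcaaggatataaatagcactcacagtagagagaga
Rara, chr11:98937468-98937717, + strand: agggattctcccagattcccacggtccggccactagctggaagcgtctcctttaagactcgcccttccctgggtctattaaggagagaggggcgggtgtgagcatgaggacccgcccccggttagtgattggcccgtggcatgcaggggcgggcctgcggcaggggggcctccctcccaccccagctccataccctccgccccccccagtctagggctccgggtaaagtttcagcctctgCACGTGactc
Nr6a1, chr2:38926462-38926711, - strand: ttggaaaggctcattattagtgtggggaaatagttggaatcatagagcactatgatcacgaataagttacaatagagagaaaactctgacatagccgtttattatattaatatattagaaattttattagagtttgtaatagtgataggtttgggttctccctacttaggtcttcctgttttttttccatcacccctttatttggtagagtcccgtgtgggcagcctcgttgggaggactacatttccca
Nr4a1, chr15:101266596-101266845, + strand: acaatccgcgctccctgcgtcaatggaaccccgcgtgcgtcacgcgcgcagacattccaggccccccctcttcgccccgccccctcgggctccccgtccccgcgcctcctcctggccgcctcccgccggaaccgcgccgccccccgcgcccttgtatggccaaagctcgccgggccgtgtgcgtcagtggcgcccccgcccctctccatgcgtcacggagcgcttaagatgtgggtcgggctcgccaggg

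The Nr0b2 sequence holds one CACGTG, whose first base lies 195 bp before the start. It lies inside the liver peak, 90 bp from the peak centre. The Rara sequence holds one CACGTG that begins 10 bp before the printed start, 12 bp from the centre of the kidney peak and 81 bp from the centre of the liver peak, and inside both. No CACGTG stands in the start windows of Nr6a1 and Nr4a1. These windows cover only part of the peaks, and the rest of both peaks was not searched. The Nr6a1 kidney peak is centred 314 bp before the start, outside its window. The other motifs searched, on both strands, were CACGTT, which shares all but its last letter with CACGTG, and AGGTCA, the half-site read by many nuclear receptors. Neither is present in the 5 receptor start windows that a peak overlapped. Over all 21262 start windows of protein-coding genes, 7.84% held CACGTG, 4.68% held CACGTT and 14.7% held AGGTCA on either strand. Of the windows under a liver peak 39.4% held CACGTG, of those under a kidney peak 36.5% and of those under a heart peak 35.0%. For CACGTT these shares were 8.81, 9.59 and 7.83%, and for AGGTCA they were 14.2, 11.6 and 9.17%. Of the 46 receptor windows, 6 held CACGTG (13.0%), and 3 of those 6 were the Nr0b2 window and the 2 overlapping Rara windows just described. The others belong to Nr1i3, Esr2 and Thrb, where no list had a peak within 10 kb of the gene. A match is a string of letters and says nothing of whether the site was bound.

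The thyroid hormone receptor gene Thra (chromosome 11, 98740776 to 98769006) had the highest-ranked peaks of all the receptor genes, but these lie in its neighbour. Thra encodes the thyroid hormone receptor that predominates in heart, and its tail end overlaps that of Nr1d1, the gene of REV-ERB alpha, on the opposite strand. A site 4.86 to 4.88 kb beyond the Thra end scored 306 in liver (rank 7), 290 in kidney (rank 3) and 305 in heart (rank 4). A second site, 6.35 to 6.36 kb beyond it, scored 277 in liver, 245 in kidney and 247 in heart, at ranks 12, 10 and 12. Both sites lie inside Nr1d1, the second within 13 to 26 bp of its start, and they count for Thra only because of the 10 kb window. Inside Thra itself the picture was different. One site was listed in kidney (chr11:98747493-98747680, score 67, rank 487) and in heart (score 63, rank 335), and a second in kidney alone (chr11:98750469-98750656, score 70, rank 449). No liver peak lay inside Thra. Thrb, the thyroid hormone receptor gene that predominates in liver, had no peak in any list within 198 kb of its ends.

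Of the retinoic acid receptor genes, which encode the receptors of all-trans retinoic acid, Rara had peaks and Rarb and Rarg did not. Rara (chromosome 11, 98927800 to 98974942) carried its strongest peak inside the gene, 11.9 kb after its nearest start, at score 80 in liver (rank 746) and 12.0 kb after it at score 65 in kidney (rank 513). The start site peak shown above scored 52 in liver (rank 1645) and 44 in kidney (rank 1037), and it also lies within Gm46294, a predicted protein-coding gene annotated inside Rara. Another site inside Rara was listed in liver alone (chr11:98953956-98954197, score 64, rank 1185). Liver and kidney thus shared both of the kidney's sites. The heart peak counted for Rara (score 32, rank 894) lies 7.67 kb beyond the gene and inside Gjd3, a connexin gene. It is the peak closest to the 10 kb limit from within. Without it Rara was a liver and kidney gene in these lists. Rarb had its nearest peak at 39.6 kb, in heart, and Rarg at 21.99 kb, in kidney.

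**Figure D1:**
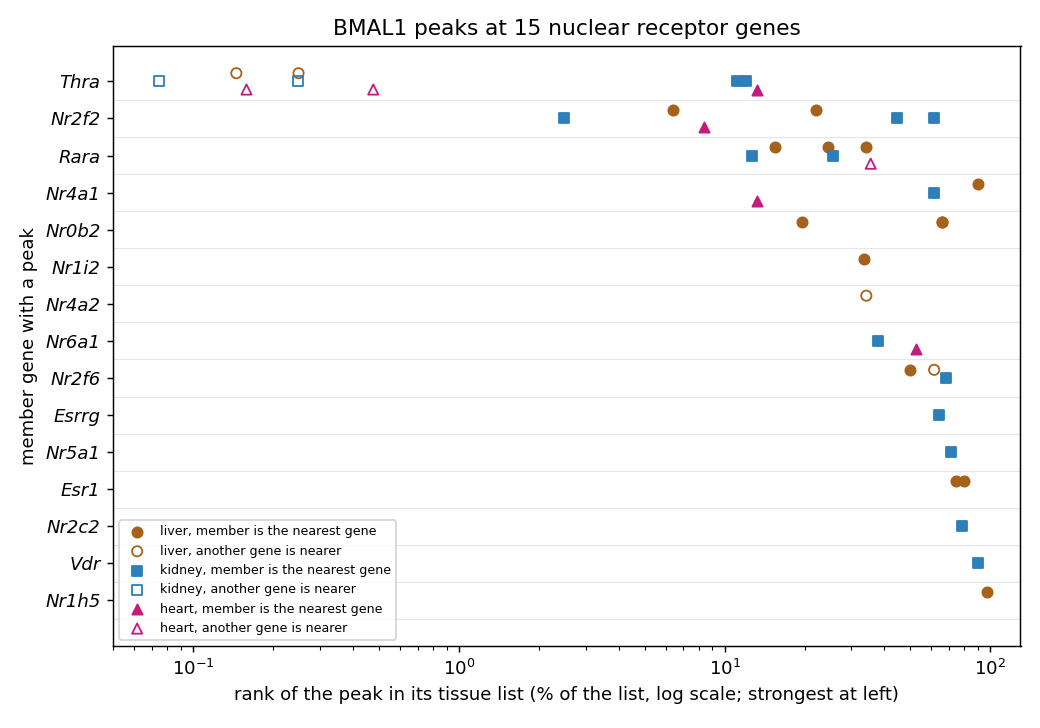
Rank of each of the 41 peaks at the 15 receptor genes, as a percentage of its tissue list on a log axis with the strongest peaks at the left; circles are liver, squares kidney and triangles heart, and open symbols are peaks whose nearest protein-coding gene is not the receptor gene. The 6 open symbols of Thra lie at the far left, inside Nr1d1, and Nr2f2 holds the highest-ranked filled symbols.

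Among peaks with the receptor gene as nearest gene, Nr2f2 held the highest rank in each list. Nr2f2 encodes COUP-TFII, an orphan receptor of vessels, atria and mesenchyme, and lies on chromosome 7 at 70351946 to 70366746. A site 5.58 to 5.61 kb beyond its far end scored 132 in kidney (rank 100 of 4034), 116 in liver (rank 308 of 4813) and 82 in heart (rank 210 of 2519). The liver peak is chr7:70346249-70346490. The Nr2f2 start lies 20.4 kb from this site, and the start of Gm29683 lies nearer, at 8485 to 8517 bp. Besides Thra with its Nr1d1 sites, Nr2f2 was the only one of these genes with a peak in the upper 10% of any list. A second site, inside the gene and 6.72 to 6.73 kb after the start, had a liver peak (score 68, rank 1060) and a kidney peak (score 23, rank 2474). One more, 4.83 kb after the start, was listed for kidney alone (score 30, rank 1797). The start of B130024G19Rik lies nearer to both sites inside Nr2f2, at 3469 to 5363 bp. Nr2f6, a relative of Nr2f2 and the gene of EAR2, had overlapping liver (score 39, rank 2408) and kidney (score 21, rank 2742) peaks inside the gene. A further liver peak near Nr2f6 (score 32) lies inside Ocel1, 71 bp from the Ocel1 start. Nr2f1, the gene of COUP-TFI, was far from any peak, with the nearest 2133 kb away.

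The NR4A receptors are immediate-early orphan receptors induced by many stimuli. Nr4a1 (chromosome 15, 101253902 to 101274795) had a peak in each tissue, but at different sites. The heart peak (chr15:101253910-101254107, score 63, rank 335) and an overlapping kidney peak (score 23, rank 2474) lay at the upstream end of the gene, 12.8 kb before the start with a RefSeq window. The liver peak lay 227 bp before that start, at score 20 and rank 4329 of 4813, near the bottom of the list. The heart peak ranked at 13.3% of its list and the kidney peak at the same site at 61.3%. The liver peak, at the other site, ranked at 89.9%. Nr4a2 had 1 liver peak, 3.54 kb before its start (score 52, rank 1645), and LOC105244150 lies nearer to it. Nr4a3 had none, with the nearest a heart peak at 38.5 kb.

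Nr0b2, Nr1i2 and Nr1h5 had peaks in the liver list and in no other. Nr0b2 encodes SHP, a receptor without a DNA-binding domain that represses other nuclear receptors and is induced by the bile acid receptor FXR. Its gene (chromosome 4, 133553376 to 133556686) had 3 liver peaks, as did Rara, and none of the 34 genes had more in liver. They lay 285 bp before the start (chr4:133552971-133553212, score 72, rank 941), 1.06 kb before it (score 30, rank 3176) and 6.72 kb after it, past the gene end (score 30, rank 3176). No heart peak lay within 76.8 kb of Nr0b2, and the nearest kidney peak lay at 13.7 kb, just outside the window. Nr1i2 encodes PXR, the xenobiotic sensor that induces Cyp3a genes, and had 1 liver peak inside the gene, 14.96 kb after the start (chr16:38279746-38279987, score 53, rank 1606). Nr1h5, the gene of FXR beta, had 1 liver peak 3.31 kb before its start at score 17, the lowest score that list holds. The main bile acid receptor gene Nr1h4 had no peak within 31.8 kb. The oxysterol receptor genes Nr1h3 and Nr1h2, which encode LXR alpha and beta, had none within 32.6 and 37.0 kb. Nr1i3, the gene of the receptor CAR, had none within 84.5 kb.

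**Figure D2:**
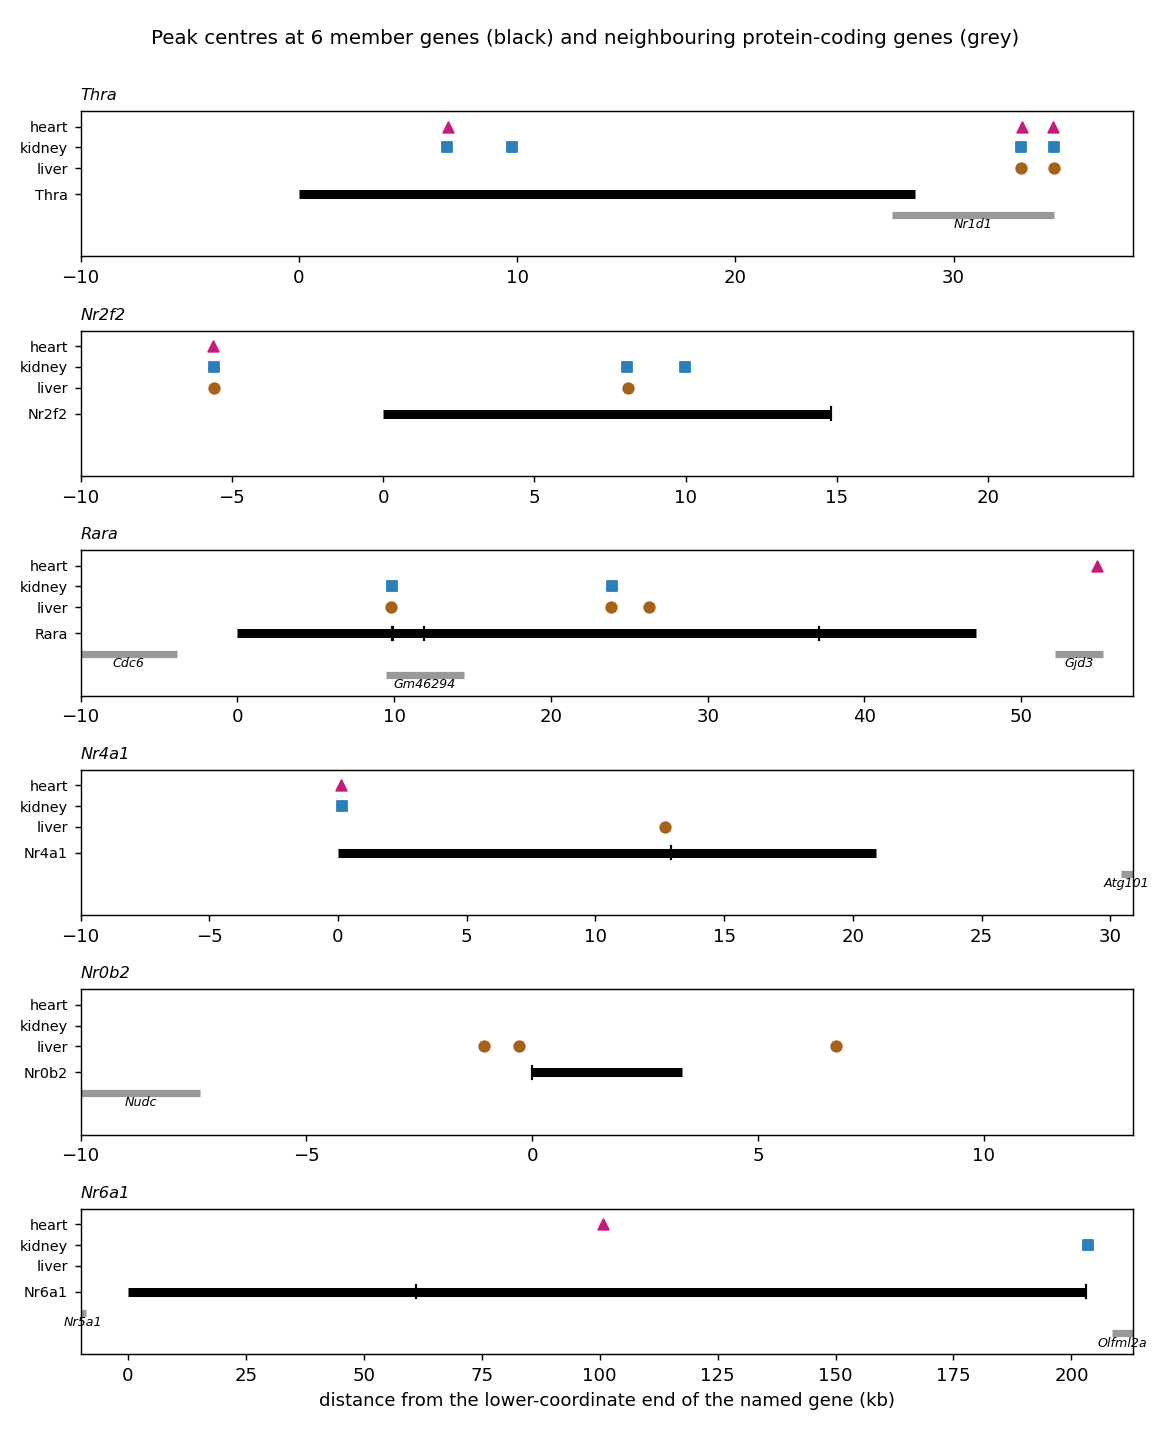
Peak centres at 6 receptor genes, in kb from the lower-coordinate end of the named gene, with the receptor gene as a black bar, its RefSeq starts as short vertical lines where given, other protein-coding genes as grey bars and 1 row of symbols per tissue. The tissues share the Nr1d1 sites next to Thra and the site beyond Nr2f2, while Nr0b2 has liver peaks only and Nr4a1 has its liver peak away from those of kidney and heart.

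Of the remaining receptor genes, Esrrg, Nr5a1, Nr2c2, Vdr and Esr1 had their peaks in the lower part of the list by rank. Kidney alone had a peak inside Esrrg (score 22, rank 2591), the gene of an estrogen-related receptor of oxidative metabolism, 104 kb after its nearest start. Kidney alone also had peaks inside Nr5a1 (score 20, rank 2878), the gene of steroidogenic factor SF-1, inside Nr2c2 (score 18, rank 3164), the gene of the orphan receptor TR4, and inside Vdr (score 15, rank 3635), the vitamin D receptor gene. The Vdr peak lies 155 bp from the start of Gm52171, and the Nr2c2 peak 492 bp before the Nr2c2 start. Liver alone had 2 peaks inside Esr1, the gene of estrogen receptor alpha, 9.07 and 12.8 kb after the nearest start, at scores 26 and 24 (ranks 3576 and 3823). The sequence shown above for Nr6a1, the gene of the germ cell factor GCNF, is that before its outer start. Nr6a1 had a kidney peak 314 bp before that start (score 34, rank 1530), only partly within the printed sequence. It also had a heart peak inside the gene (score 24, rank 1321). These last 2 sites do not overlap.

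The 19 genes without a listed peak were Thrb, Rarb, Rarg, Nr1h2, Nr1h3, Nr1h4, Nr1i3, Hnf4g, Rxrb, Rxrg, Nr2c1, Nr2e1, Nr2e3, Nr2f1, Esr2, Esrrb, Pgr, Nr4a3 and Nr0b1. The nearest peak of any tissue lay within 50 kb for 8 of them and over 100 kb away for another 8. Esr2 was closest to the limit, with a kidney peak at 19.0 kb and a liver peak at 20.8 kb. Hnf4g, a relative of the liver factor HNF4 alpha, was farthest, with 5008 kb to its nearest peak. The retinoid X receptor genes Rxrb and Rxrg, whose products are the common partners of other receptors, had their nearest peaks at 50.5 and 107 kb.

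**Figure D3:**
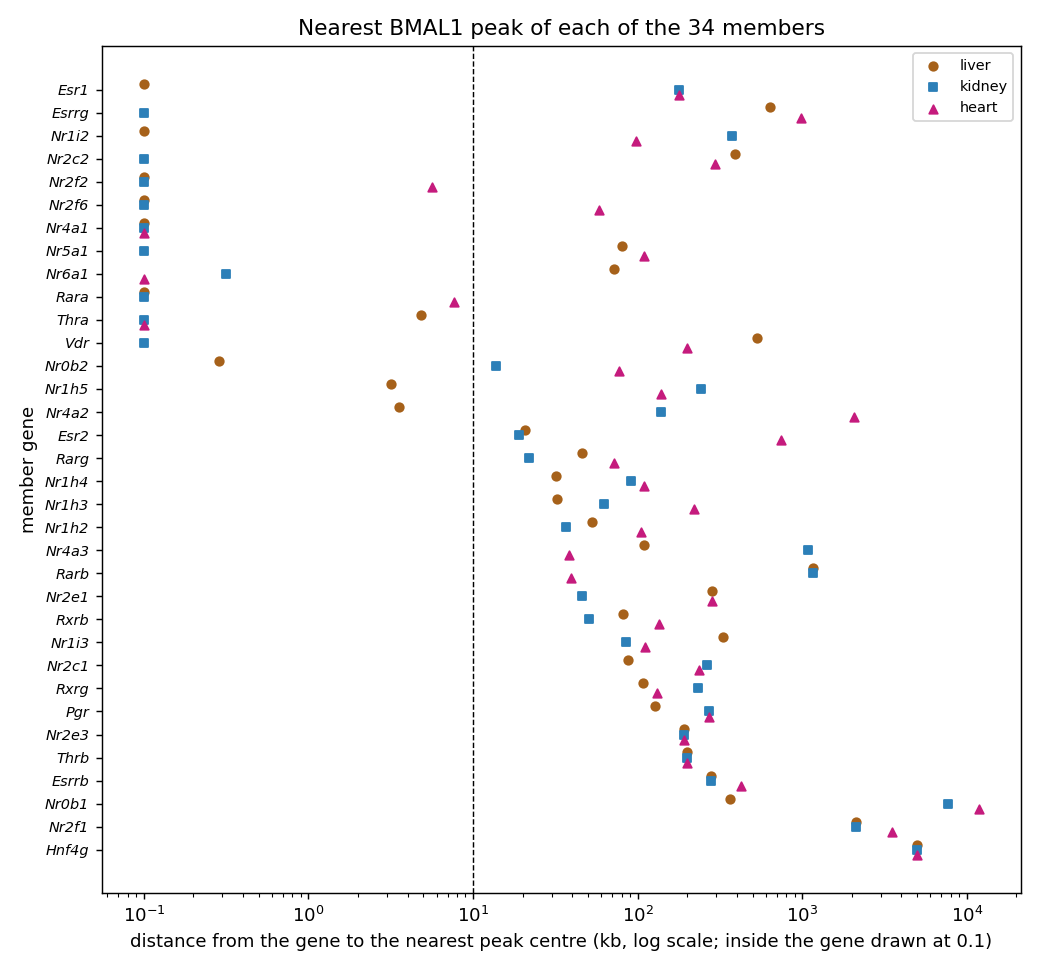
Distance in kb, on a log axis, from each of the 34 receptor genes to the nearest peak centre in liver (circles), kidney (squares) and heart (triangles); a peak inside the gene is drawn at 0.1 and the dashed line marks 10 kb. The upper 15 genes have at least 1 symbol left of the line, and the 19 below have none, with Hnf4g farthest at 5008 kb.

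The 41 peaks at receptor genes fell into 29 regions. Of these regions 20 were listed in 1 tissue (69.0%), 6 in 2 tissues (20.7%) and 3 in all 3 (10.3%). Over all 7408 regions at protein-coding genes the shares were 77.9, 15.6 and 6.44%. Of the 3 common regions, 2 are those inside Nr1d1 and the other is the site beyond Nr2f2. With only the peaks whose nearest protein-coding gene is the receptor gene, 24 regions remained and 1 of them (4.17%) was common to all 3 tissues, so the share then lay below the 6.44% of all regions. By gene, 5 receptor genes had peaks in liver alone and 4 in kidney alone, and none in heart alone. These are 33.3, 26.7 and 0% of the receptor genes with a peak, against 22.9, 21.8 and 14.0% of all protein-coding genes with a peak. The receptor genes with peaks in liver alone were Nr0b2, Nr1i2, Nr1h5, Nr4a2 and Esr1, and those with peaks in kidney alone Esrrg, Nr5a1, Nr2c2 and Vdr. Peaks lay inside the receptor gene itself in 9 of 18 cases in liver, 12 of 16 in kidney and 3 of 7 in heart. Counting a peak inside any protein-coding gene gave 12 of 18 (66.7%), 14 of 16 (87.5%) and 6 of 7 (85.7%), against 73.3, 71.0 and 75.5% of all peaks at protein-coding genes.

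Receptor gene peaks had a median score of 52 for liver, 32 for kidney and 63 for heart, against 42, 29 and 27 over all peaks at protein-coding genes of the same list. The Nr1d1 sites enter these medians. With only the peaks whose nearest protein-coding gene is the receptor gene, 14 peaks remained in liver (median 45.5), 14 in kidney (median 26.5) and 4 in heart (median 63). That setting left 8 receptor genes with a liver peak (23.5%), 10 with a kidney peak (29.4%) and 4 with a heart peak (11.8%). The shares of all protein-coding genes were 13.7, 13.3 and 8.90%. Thra and Nr4a2 were lost from the liver list and Rara from the heart list.

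**Figure D4:**
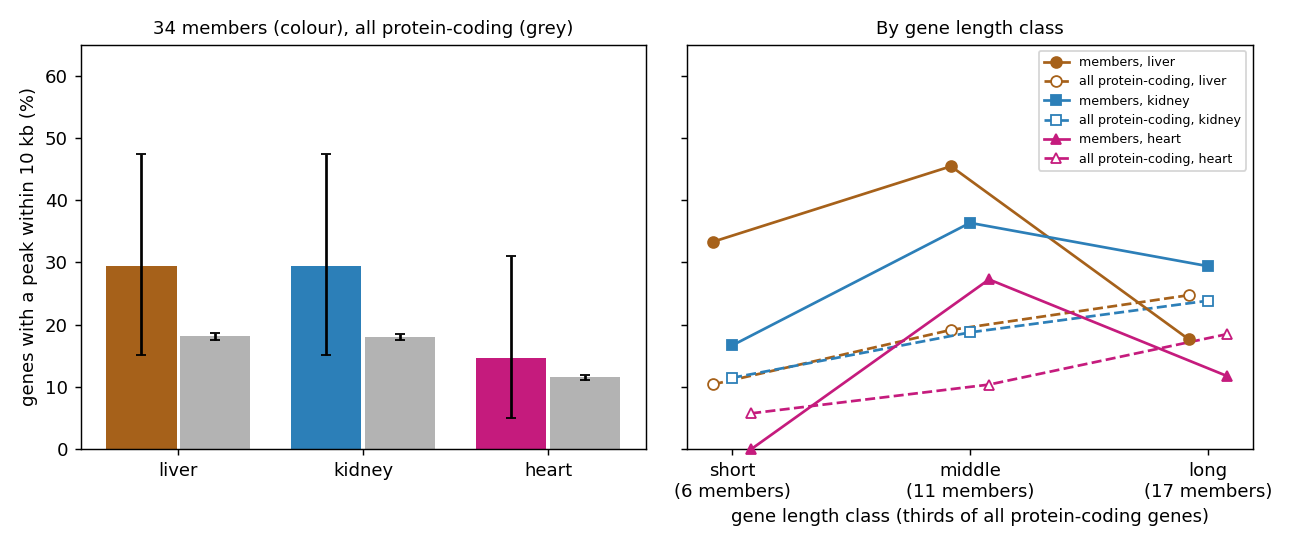
Left, share of the 34 receptor genes (colour) and of all 21883 protein-coding genes (grey) with a peak within 10 kb, by tissue, with exact 95% intervals that cover counting error only; right, the same shares by gene length class, with receptor genes as filled symbols and solid lines and all protein-coding genes as open symbols and dashed lines. The receptor bars stand at 29.4, 29.4 and 14.7%, and in the longest class the share of receptor genes lies below that of all genes in liver and heart.

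Gene length moves with these shares. The receptor genes had a median length of 34.7 kb, against 17.2 kb for all protein-coding genes, and 17 of the 34 were in the longest of 3 equal classes of genes by length. In that class 24.7% of all genes had a liver peak, 23.9% a kidney peak and 18.5% a heart peak. Of the 17 long receptor genes 3 had a liver peak (17.6%), 5 a kidney peak (29.4%) and 2 a heart peak (11.8%). Among the 11 of middle length the counts were 5, 4 and 3, with 19.2, 18.8 and 10.4% of all genes of that class. Among the 6 short ones they were 2, 1 and 0, with 10.4, 11.5 and 5.76%. A peak in any list was found at 7 of the 17 long receptor genes (41.2%, against 43.0% of long genes), at 6 of the 11 of middle length (54.5%, against 31.3%) and at 2 of the 6 short ones (33.3%, against 17.7%). Over gene bodies with their 10 kb flanks, the receptor genes had 4.45 liver, 3.96 kidney and 1.73 heart peaks per Mb, against 3.53, 3.33 and 1.92 for all protein-coding genes. Without the peaks nearer to another gene these densities were 3.46, 3.46 and 0.989 per Mb, against 2.65, 2.41 and 1.47. The receptor genes thus lay above the background in liver and kidney and below it in heart by density, with no error between animals for any of these values.

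The other 15 nuclear receptor genes, among them those of the clock and PPAR groups, had a liver peak in 11 cases, a kidney peak in 11 and a heart peak in 6. These are 73.3, 73.3 and 40% of the 15, against 18.1, 18.0 and 11.5% of all protein-coding genes. Nr1d1, Nr1d2, Nr3c2 and Ppara were among those with the best ranks there. Ppara had 5 liver peaks (best rank 138), 1 kidney peak (rank 286) and none in heart. That group holds genes known as BMAL1 targets, and its counts are given for comparison without a test. Of 20 coregulator genes, 7 had a liver peak (35%), 10 a kidney peak (50%) and 3 a heart peak (15%), beside the same background. Median gene length was 86.9 kb for the 15 receptor genes and 97.9 kb for the coregulators, against 17.2 kb for all protein-coding genes. Ppargc1b, a coactivator of estrogen-related receptors, had 4 liver peaks (best rank 405) and 3 kidney peaks (best rank 338).

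Genes that make, break down or carry ligands had a liver peak in 9 of 28 cases, a kidney peak in 6 and a heart peak in 3. These are 32.1, 21.4 and 10.7%, against 18.1, 18.0 and 11.5% of all protein-coding genes. Cyp27b1, which makes active vitamin D, had 2 kidney peaks (best rank 298) and 1 liver peak (rank 381). Cyp26b1, which breaks down retinoic acid, had a kidney peak (rank 426) and a heart peak (rank 259). Of 31 genes known as receptor targets, 14 had a liver peak, 10 a kidney peak and 2 a heart peak. These are 45.2, 32.3 and 6.45%, against the same 18.1, 18.0 and 11.5%. Klf9, a target of thyroid hormone and glucocorticoid receptors, had peaks of high rank in all 3 lists (ranks 5, 13 and 46). Lpcat3, an LXR target, had 3 peaks in liver (best rank 230) and none elsewhere. Klb, the gene of the coreceptor for FGF15 and FGF21, had 2 peaks in liver (best rank 765) and none elsewhere. Slc51a, an FXR target that exports bile acids, had 2 kidney peaks (best rank 426) and none in liver.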

How the data were processed

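The libraries were grouped by their titles. Per the labels, all ChIP and input replicates of a tissue went into 1 list of peaks. The submitters' processing notes name Bowtie2, SAMtools and HOMER and the build mm10, with no versions or roles. The deposited score has no stated scale and served only for order within a list (ties share the best rank). Peak width is fixed in each list (liver 242 bp, kidney 188 bp, heart 198 bp). Replicates were pooled and depth is unknown, so no test was made.

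Genes and start windows came from RefSeq tables of GRCm38.p6, the same build as mm10. Peaks that overlapped by at least 1 bp formed a region. Intervals are Clopper-Pearson. Python 3.11.15, pandas 2.3.3 and scipy 1.17.1 were used, and gene assignment was tested on simulated data. Every receptor gene with a peak is named. Full values are given for the 5 genes per tissue with the highest score and those with a common region, and at most 5 genes of best rank are named from each other list. A few genes that this rule selects are not reported here. Members and lists were chosen with earlier results of these data known. Other windows, overlap in place of centres, stricter parts of each list and gene length classes were tried as alternatives. Assignment to the nearest gene was added after seeing the data. Motifs in peaks, or parts of peaks, outside the start windows were not analysed here.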

Additional observations from a re-analysis of the deposited data

How the results depend on the processing

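Over all 34 genes, the receptor share lay above that of all protein-coding genes in liver and kidney under each alternative tried. The difference was 6.65 to 13.9 percentage points in liver and 1.02 to 16.8 in kidney. In kidney it fell from 11.4 points to 1.02 when only the higher-scoring 50% of peaks were kept. It fell to 1.93 with equal numbers of top peaks, so most of the kidney difference rested on lower-scoring peaks. In the longest gene class alone the receptor share lay below that of all genes in liver (17.6%, against 24.7%) and above it in kidney (29.4%, against 23.9%). In heart the difference of 3.17 points turned to -1.17 with a 5 kb window and to -2.11 with a 50 kb window, and the cause was not tested. The counts of receptor genes that moved by over 1.5 times were the following, each with its share and that of all protein-coding genes. With peaks inside genes only, 6 receptor genes had a liver peak (17.6%, against 10.2%) and 3 a heart peak (8.82%, against 6.83%). With a 5 kb window 3 had a heart peak (8.82%, against 9.99%) and 1 a common region (2.94%, against 2.63%). The upper 50% of each list by score left 6 with a liver peak (17.6%, against 10.9994%). It left 4 with a kidney peak (11.8%, against 10.7%). Equal numbers of top peaks per list left 5 with a kidney peak (14.7%, against 12.8%). Counting only peaks whose nearest protein-coding gene is the receptor gene left 1 with a common region, Nr2f2 (2.94%, against 2.10%). Against genes of the same 3 length classes the differences were 9.00, 9.39 and 1.09 points in liver, kidney and heart. No paired analysis was possible because each tissue has 1 pooled peak list, and for the same reason no replicate could be left out. Read depth limits which weak sites a list holds, and it is unknown.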
